A study of Homo sapiens with 6 samples.

Results

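The genes described here are 37 genes of the unfolded protein response and of the response to amino acid shortage. They were chosen by name, with earlier results of these data known. Each is measured by probe sets (groups of short probes for 1 transcript) annotated with that single symbol. They are 37 of the 19775 genes with such a probe set on the array. Expression was compared between groups of Cal27 cells, an established human tongue squamous cell carcinoma line, to explore what changes when interleukin-1β, an inflammatory cytokine, is silenced. One group carried a lentiviral short hairpin RNA against IL-1β (LV-shIL-1β, 3 arrays) and the other a scrambled hairpin (LV-shNC, 3 arrays), on Affymetrix Human Genome U133 Plus 2.0 arrays. Both groups had been transduced with lentivirus and selected for 2 weeks with puromycin (2 µg/mL), so the control shares the virus and the selection. A single hairpin sequence was used against IL-1β. Whether the arrays within a group stand for separate cultures is not stated, and p-values therefore reflect array-to-array spread that may be technical.

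Proteins that enter the endoplasmic reticulum (ER) fold there with the help of chaperones, and 3 membrane sensors, encoded by EIF2AK3 (PERK), ERN1 (IRE1) and ATF6, respond when unfolded proteins build up. PERK phosphorylates the initiation factor eIF2, which lowers translation in general while favouring translation of the transcription factor ATF4. Shortage of amino acids reaches the same step through another eIF2 kinase, GCN2, and ATF4 then drives genes for amino acid synthesis and transport. IRE1 splices the XBP1 mRNA and ATF6 is cut to release a transcription factor, and both act on chaperone and degradation genes. Control of ATF4 by translation, of XBP1 by splicing and of the sensors by modification is not seen in a probe set's signal, which measures mRNA.

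Signals are the intensities deposited by the authors, on a linear scale. A difference between groups is LV-shIL-1β minus LV-shNC on the log2 scale (a log2 fold change) with its SE, from a limma fit over the 27566 probe sets that lay above the median signal of 18.6 in at least 3 of 6 arrays. A gene was called higher or lower where its p, adjusted by the Benjamini-Hochberg method over all these probe sets, was under 0.05. Each gene is given on its brightest probe set, and levels of different genes are not set against each other. All 37 genes passed the filter, each with all 6 arrays above the median.

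The target itself was lower, with IL1B signals of 2677, 2611 and 2494 in LV-shNC and 1569, 1569 and 1596 in LV-shIL-1β (log2 fold change -0.72 ± 0.04, limma adjusted p = 2.46e-05). Array medians lay between 18.4 and 18.9. The epithelial markers CDH1 (1349 and 1390 in LV-shNC and LV-shIL-1β) and EPCAM (2402 and 2501) were present in both groups, while the basal keratins KRT14 (7175 to 5613, limma adjusted p = 0.000262) and KRT5 (3678 to 2947, limma adjusted p = 0.00152) fell. Of the other cell type markers, the summed leukocyte signal was 63.9 to 69.2 in LV-shNC and 87.0 to 91.0 in LV-shIL-1β, with the defining gene PTPRC at 2.68 and 2.64 and CD14 (49.5 to 70.4, limma adjusted p = 0.00454) as the single kept marker of 3. The summed signal of 5 fibroblast markers was 144 to 166 and 112 to 127. Of the 4 tested, 2 were called lower, LUM (27.5 to 12.4, limma adjusted p = 0.00541) and COL1A2 (23.2 to 16.1, limma adjusted p = 0.013). Both lay above the filter's median in 3 LV-shNC arrays and in 0 LV-shIL-1β arrays. They were thus kept through the controls alone, with signals near that median, so these p-values do not decide whether fibroblast transcripts fell. The summed signal of 3 endothelial markers was 58.4 to 62.1 and 57.6 to 58.9. The lowest value in the data was 1.38, so no marker could be listed at 0. The log2 ratio of 3′ to 5′ GAPDH control probe sets was -0.06 to 0.01 in LV-shNC and 0.02 to 0.05 in LV-shIL-1β, and the part of this and of the markers in the results was not tested.

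The regulators of these pathways bind known DNA elements, and windows of 4 genes are shown as examples of where such letters lie. Windows of 300 bases, from 250 before to 50 after the annotated start, were taken from RefSeq (GRCh38.p14) and were found for 33 of the 37 genes, in 43 windows. Both strands were searched for the ER stress response element (ERSE: CCAAT, 9 bases of any kind, then CCACG), for ERSE-II (ATTGG, 1 base of any kind, then CCACG), for the unfolded protein response element (UPRE, TGACGTG) and for the composite element bound by ATF4 with C/EBP proteins (CARE, TGATGNAA). Capitals mark the matched bases.
HSPA5, minus strand of chr9:125241294-125241593, ERSE: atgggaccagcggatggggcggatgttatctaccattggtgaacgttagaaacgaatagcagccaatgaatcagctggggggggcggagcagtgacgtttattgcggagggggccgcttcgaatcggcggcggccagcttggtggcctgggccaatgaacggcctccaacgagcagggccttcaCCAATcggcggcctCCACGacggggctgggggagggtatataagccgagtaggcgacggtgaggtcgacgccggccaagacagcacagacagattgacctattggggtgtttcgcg
HSP90B1, plus strand of chr12:103930160-103930459, ERSE on each strand: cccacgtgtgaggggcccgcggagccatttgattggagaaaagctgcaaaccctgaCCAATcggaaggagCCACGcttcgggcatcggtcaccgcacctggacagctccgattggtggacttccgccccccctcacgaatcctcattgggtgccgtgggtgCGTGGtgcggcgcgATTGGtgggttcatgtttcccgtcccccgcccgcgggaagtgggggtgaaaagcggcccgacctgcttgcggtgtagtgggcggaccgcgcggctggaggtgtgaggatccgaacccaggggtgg
ASNS, minus strand of chr7:97872359-97872658, CARE: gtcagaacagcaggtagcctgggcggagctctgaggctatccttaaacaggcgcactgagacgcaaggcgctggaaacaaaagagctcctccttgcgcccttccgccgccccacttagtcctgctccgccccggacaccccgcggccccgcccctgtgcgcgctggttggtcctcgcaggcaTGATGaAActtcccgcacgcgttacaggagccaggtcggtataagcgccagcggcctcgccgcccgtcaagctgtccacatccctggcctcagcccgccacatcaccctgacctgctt
HERPUD1, plus strand of chr16:56931892-56932191, ERSE-II and, on the other strand, CARE: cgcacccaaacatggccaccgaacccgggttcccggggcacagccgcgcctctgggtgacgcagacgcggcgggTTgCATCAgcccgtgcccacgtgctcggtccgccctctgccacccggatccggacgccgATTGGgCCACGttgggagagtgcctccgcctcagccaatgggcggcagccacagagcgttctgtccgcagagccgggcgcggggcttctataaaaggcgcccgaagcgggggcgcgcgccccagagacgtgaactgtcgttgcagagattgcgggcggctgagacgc

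An ERSE was found in 27 of 35116 windows of all genes (0.0769%) and in 6 of the 43 windows of these genes, each of a different gene. An ERSE-II was found in 19 windows of all genes (0.0541%) and in 3 of the 43, also of different genes. These elements are known from several of these very chaperone genes, so their presence here is background. The ERSE matches, each written in the direction of the element, are given next, with the position of the end farthest upstream of the gene's start.
HSPA5 at -66: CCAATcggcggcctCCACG
HSP90B1 at -194: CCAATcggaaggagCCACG
HSP90B1 at -89, other strand: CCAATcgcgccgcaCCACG
PDIA6 at -86: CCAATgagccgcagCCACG
CRELD2 at -80, other strand: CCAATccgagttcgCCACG
CALR at -225, other strand: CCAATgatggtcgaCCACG
XBP1 at -52: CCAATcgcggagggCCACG
The ERSE-II matches were in SDF2L1 at -188 (ATTGGtCCACG), in HYOU1 at -185 and -79 (both ATTGGaCCACG) and in HERPUD1 at -117 (ATTGGgCCACG). A CARE was found in 1270 windows of all genes (3.62%) and in 4 of the 43. These were of ASNS at -68 (TGATGaAA) and of CEBPG at -42, CHAC1 at -209 and HERPUD1 at -176 (all TGATGcAA). The UPRE letters were in 692 windows of all genes (1.97%) and in 1 of the 43, that of HYOU1 at -188, where they overlap its ERSE-II. By role, 7 of the 11 ER chaperone and folding genes held an ERSE or ERSE-II, against none of the 6 stress effectors and none of the 5 amino acid enzymes with a window. A match of letters is a description and not a measured binding site, and a missing match does not show that an element is absent.

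**Figure D1:**
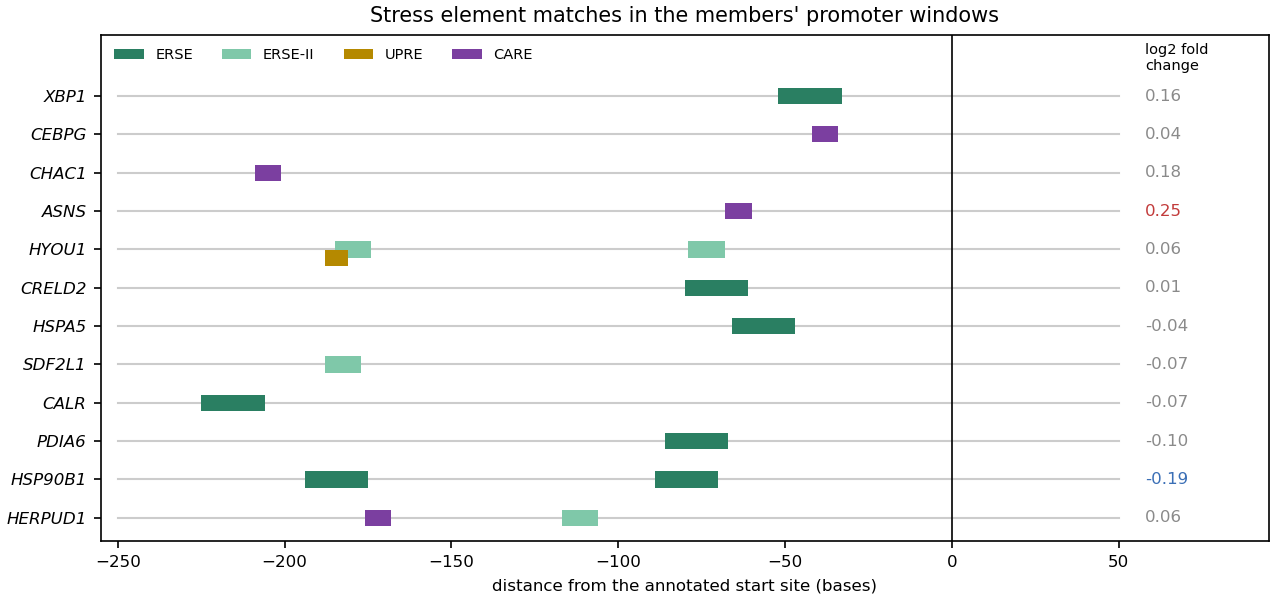
Positions of the matched elements in bases from the annotated start (x axis), 1 line per gene with a match, with colour for the element and the log2 fold change at the right. ERSE and ERSE-II matches lie in 7 ER chaperone and folding genes, XBP1 and HERPUD1, and CARE matches in ASNS, CEBPG, CHAC1 and HERPUD1.

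Of the 37 genes 6 were called higher in LV-shIL-1β and 2 were called lower. The 6 higher genes were the transcription factor CEBPB, the stress effectors STC2, PPP1R15A, TRIB3 and VLDLR, and the asparagine synthetase gene ASNS, with log2 fold changes of 0.25 to 0.43. The lower genes were CTH, the enzyme that makes cysteine from cystathionine (-0.47), and HSP90B1, the ER chaperone GRP94 (-0.19). Over all probe sets tested, 1943 of 27566 were called (7.05%), 1014 of them higher (3.68%) and 929 lower (3.37%). Shares over all probe sets count every kept probe set, whereas the 37 genes are each on their brightest one, so the 2 are not strictly alike. When kept probe sets were averaged by gene, 6.59% of all genes were called higher and 5.89% lower. The other 29 genes did not pass the test, and at an unadjusted limma p under 0.05 there were 10 higher and 4 lower of the 37. Log2 fold changes of the 37 genes ran from -0.47 to 0.43 with a median of 0.06, against a median of 0.01 over all probe sets tested. Of the 37, 25 were positive and 12 negative, while 53.2% of all probe sets tested were positive. In 17 genes every LV-shIL-1β array lay above every LV-shNC array, which held for 15.3% of all probe sets tested. In 6 genes every LV-shNC array lay above, against 12.6% of all probe sets tested. No gene of the 37 had a fold over 1.5 with an unadjusted limma p under 0.05, the size of change used in the study's methods, while 258 of all 54613 probe sets did (0.472%).

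**Figure D2:**
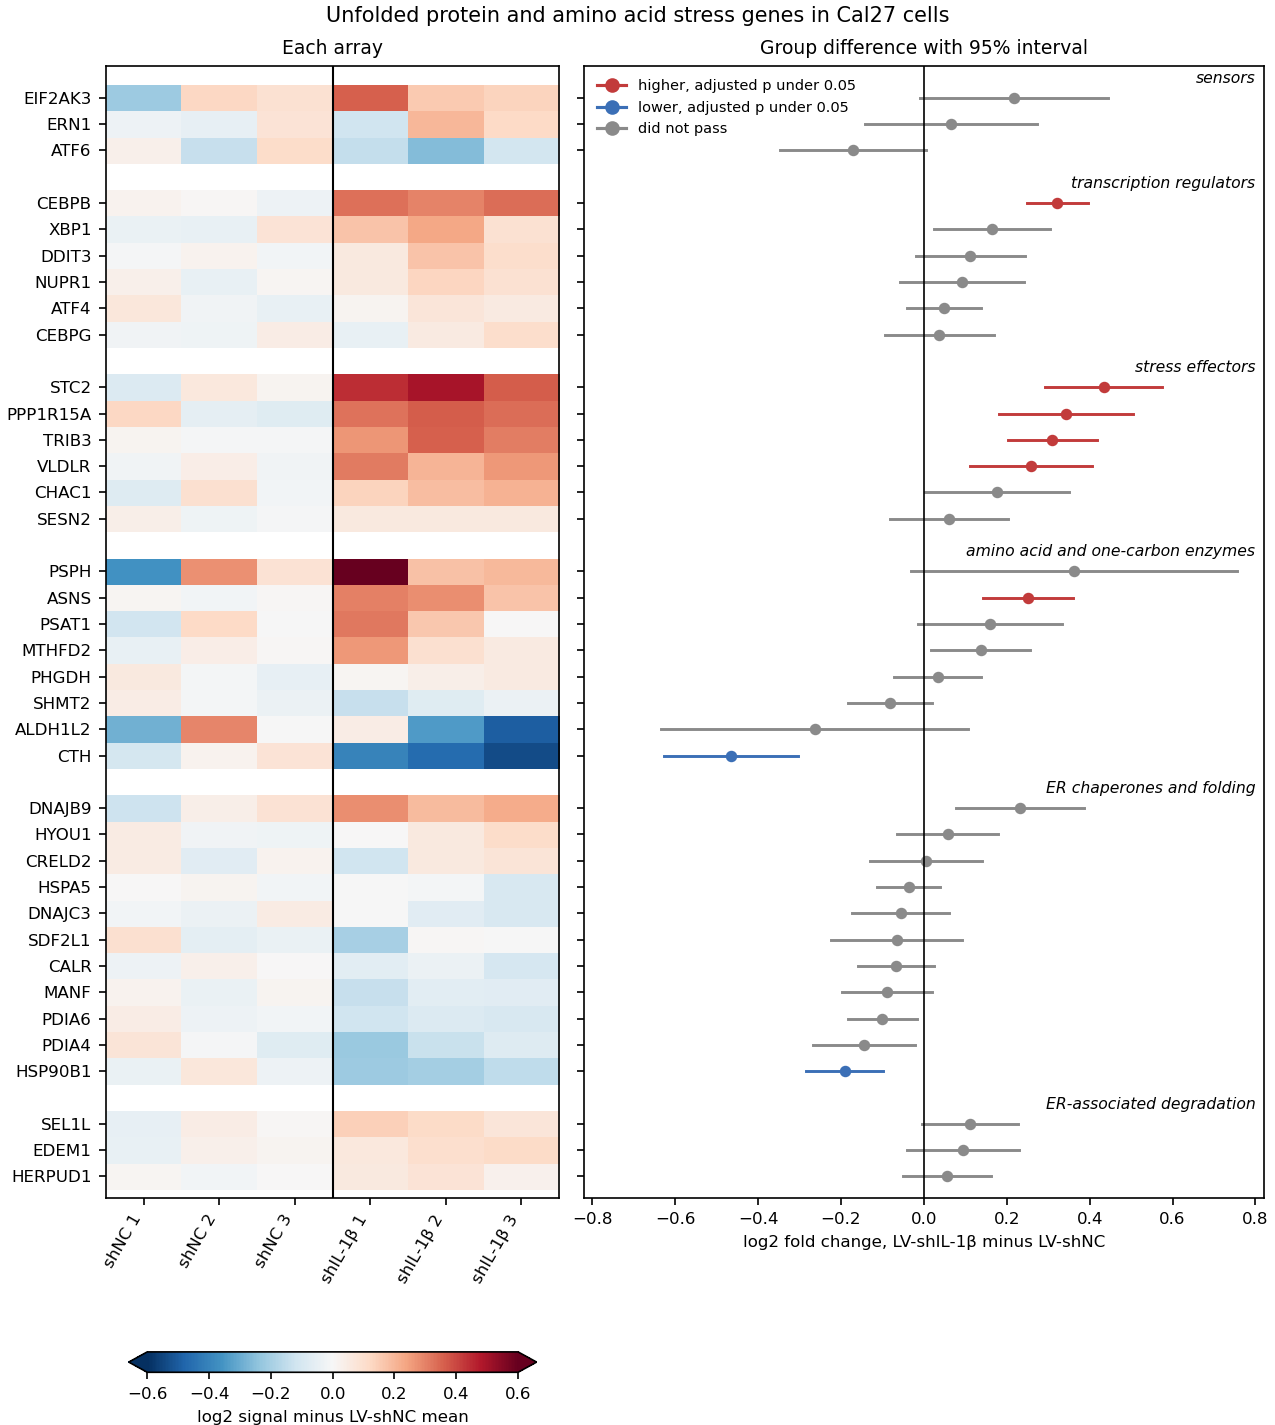
Left, log2 signal of each array minus the LV-shNC mean for the 37 genes by role, with colour from lower (blue) to higher (red); right, the log2 fold change of LV-shIL-1β over LV-shNC with its 95% confidence interval. The stress effectors lie to the right of 0, at 0.06 to 0.43, while 8 of the 11 ER chaperone and folding genes lie to its left.

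None of the 3 sensors was called by limma, and 0 of them had an unadjusted p under 0.05. EIF2AK3, which encodes PERK, had signals of 74.0, 93.9 and 91.6 in LV-shNC and 110, 95.8 and 94.4 in LV-shIL-1β (0.22 ± 0.10, limma adjusted p = 0.244). The groups did not overlap, though replicates 2 and 3 of LV-shIL-1β lay close above the highest control and LV-shNC replicate 1 lay well below the other controls. ERN1 (0.07 ± 0.09, limma adjusted p = 0.727) and ATF6 (-0.17 ± 0.08, limma adjusted p = 0.237) overlapped between groups. The 95% intervals were -0.01 to 0.44 for EIF2AK3, -0.14 to 0.27 for ERN1 and -0.35 to 0.01 for ATF6.

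Among the 6 transcription regulators 1 was called higher, and all 6 had a positive log2 fold change (median 0.10). Of all probe sets tested 3.68% were called higher and 53.2% were positive. CEBPB, a C/EBP family factor that partners with ATF4 and also serves inflammatory signalling, had signals of 1785, 1770 and 1725 in LV-shNC and 2216, 2163 and 2223 in LV-shIL-1β. It was 1760 ± 31.4 and 2200 ± 32.9 (SD, n = 3), with no overlap and a log2 fold change of 0.32 ± 0.03 (limma adjusted p = 0.000761). This was the call that passed in every alternative analysis run.

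ATF4, the central factor of the response, had signals of 1846, 1736 and 1707 in LV-shNC and 1784, 1854 and 1826 in LV-shIL-1β. The groups overlapped and the difference was 0.05 ± 0.04 (95% interval -0.04 to 0.14, limma adjusted p = 0.524). DDIT3, which encodes the stress factor CHOP, had 129, 132 and 129 against 136, 146 and 140 (0.11 ± 0.06, limma adjusted p = 0.294). XBP1 had 186, 186 and 203 against 215, 225 and 204 (0.16 ± 0.06, limma adjusted p = 0.154). In both DDIT3 and XBP1 every LV-shIL-1β array lay above the controls, yet neither passed. CEBPG, another C/EBP partner of ATF4, was at 0.04 ± 0.06 and NUPR1, a small stress-induced chromatin protein, at 0.09 ± 0.07, with limma adjusted p-values of 0.757 and 0.454.

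The 6 stress effectors were the role with the most calls, 4 of 6, and in all 6 every LV-shIL-1β array lay above every LV-shNC array. Over all probe sets tested 3.68% were called higher and 15.3% were separated in this way. The roles were listed with earlier results of these data known, so differences between roles are a description and not a test. Their median log2 fold change was 0.28. STC2, a secreted glycoprotein induced by PERK signalling, had signals of 145, 160 and 155 in LV-shNC and 209, 216 and 198 in LV-shIL-1β, or 153 ± 7.74 and 207 ± 9.23 (SD, n = 3). Its log2 fold change was 0.43 ± 0.06 (limma adjusted p = 0.00389), and a second probe set gave 0.40 ± 0.08 (limma adjusted p = 0.0137).

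TRIB3, a pseudokinase that restrains ATF4 and AKT, had signals of 360, 354 and 355 in LV-shNC and 428, 457 and 440 in LV-shIL-1β. The controls were close together and all LV-shIL-1β arrays lay above them (0.31 ± 0.05, limma adjusted p = 0.00509). Its other kept probe set gave 0.23 and did not pass (limma adjusted p = 0.0734). PPP1R15A encodes GADD34, the subunit that directs a phosphatase to eIF2 and so restores translation. Its signals were 71.2, 63.1 and 62.2 in LV-shNC and 82.1, 84.1 and 82.5 in LV-shIL-1β, where the control replicate 1 was the highest control (0.34 ± 0.07, limma adjusted p = 0.0227). A second PPP1R15A probe set gave 0.31 and did not pass (limma adjusted p = 0.124). The PPP1R15A call was lost when LV-shNC replicate 2 or 3, or LV-shIL-1β replicate 2 or 3, was left out, with limma adjusted p up to 0.102.

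VLDLR, a lipoprotein receptor raised through PERK and ATF4, had signals of 58.3, 60.6 and 58.3 in LV-shNC and 73.2, 68.1 and 70.7 in LV-shIL-1β. The groups did not overlap (0.26 ± 0.07, limma adjusted p = 0.0463), but the call was lost on leaving out any one of the 6 arrays (limma adjusted p up to 0.129). CHAC1, which degrades glutathione, did not pass, with means of 36.4 and 41.1 (0.18 ± 0.08, limma adjusted p = 0.217). SESN2, a leucine sensor that restrains mTORC1, had means of 63.7 and 66.4 (0.06 ± 0.06, limma adjusted p = 0.623).

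**Figure D3:**
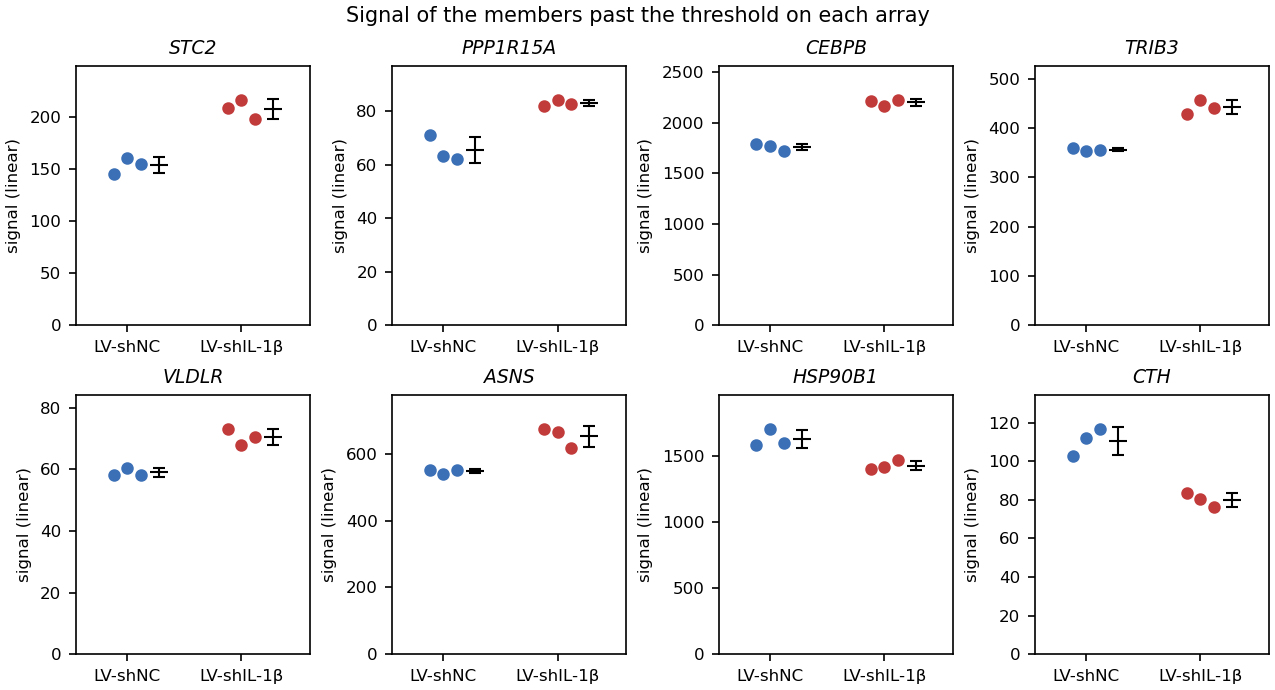
Signal in each of the 6 arrays (points) with the group mean and SD for the 8 genes called, LV-shNC beside LV-shIL-1β, on a separate axis for each gene. In none of the 8 do the groups overlap, with LV-shIL-1β above in 6 and below in CTH and HSP90B1.

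Of the 8 amino acid and one-carbon enzymes 1 was called higher and 1 lower, beside 3.68% and 3.37% of all probe sets tested. ASNS, which makes asparagine from aspartate and whose window holds a CARE (TGATGaAA, shown above), had signals of 552, 541 and 550 in LV-shNC and 675, 665 and 616 in LV-shIL-1β. All LV-shIL-1β arrays lay above the controls, replicate 3 least (0.25 ± 0.05, limma adjusted p = 0.0153). The call was lost without LV-shNC replicate 2, LV-shNC replicate 3 or LV-shIL-1β replicate 2 (limma adjusted p up to 0.0831), and in limma without the mean-dependent variance trend (adjusted p = 0.0546). CTH, by contrast, had signals of 103, 112 and 117 in LV-shNC and 83.5, 80.2 and 76.1 in LV-shIL-1β. Its groups did not overlap (-0.47 ± 0.07, limma adjusted p = 0.00538), and a second probe set gave -0.49 ± 0.07 (limma adjusted p = 0.00382).

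The 3 enzymes of serine synthesis, PHGDH, PSAT1 and PSPH, which act in that order, did not pass on their brightest probe sets. PHGDH had means of 521 and 533 (0.03 ± 0.05), and PSAT1 of 2070 and 2316 (0.16 ± 0.08), with limma adjusted p-values of 0.724 and 0.261. PSPH had signals of 65.6, 102 and 89.5 in LV-shNC and 139, 95.2 and 96.3 in LV-shIL-1β. Its groups overlapped and the low control and the high LV-shIL-1β array were both replicate 1 (0.36 ± 0.18, limma adjusted p = 0.26). A second PSPH probe set was called higher (0.33 ± 0.08, limma adjusted p = 0.0371). For the mitochondrial one-carbon enzymes, MTHFD2 was at 0.14 ± 0.05, SHMT2 at -0.08 ± 0.05 and ALDH1L2 at -0.26 ± 0.17, with limma adjusted p-values of 0.162, 0.323 and 0.385.

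The 11 ER chaperone and folding genes had a median log2 fold change of -0.07, with 8 negative and 3 positive, and 1 was called lower. Of all probe sets tested 53.2% were positive and 3.37% were called lower. HSPA5, which encodes BiP, the main ER Hsp70 chaperone and the usual marker of ER stress, had signals of 3045, 3077 and 3008 in LV-shNC and 3038, 3018 and 2847 in LV-shIL-1β. The groups overlapped (-0.04 ± 0.03, limma adjusted p = 0.575) and the 95% interval of the difference was -0.11 to 0.04. HSP90B1 had signals of 1584, 1702 and 1593 in LV-shNC and 1396, 1412 and 1464 in LV-shIL-1β, or 1626 ± 66.0 and 1424 ± 35.7 (SD, n = 3). All LV-shIL-1β arrays lay below the controls (-0.19 ± 0.04, limma adjusted p = 0.0249). The probe set belongs to a class whose probes can match other transcripts, and the other single-symbol probe set of the gene gave -0.08 (limma adjusted p = 0.516). Leaving out LV-shNC replicate 2 or 3 or any one LV-shIL-1β array ended the HSP90B1 call (limma adjusted p up to 0.107).

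In 4 more folding genes every LV-shIL-1β array lay below every control without passing, the disulphide isomerases PDIA4 (-0.14 ± 0.06, limma adjusted p = 0.154) and PDIA6 (-0.10 ± 0.04, limma adjusted p = 0.143), the calcium-binding chaperone CALR (-0.07 ± 0.04, limma adjusted p = 0.38) and the secreted factor MANF (-0.09 ± 0.05, limma adjusted p = 0.311). Every LV-shNC array lay above every LV-shIL-1β array in 12.6% of all probe sets tested. One of 3 other PDIA6 probe sets was called lower (-0.20 ± 0.04, limma adjusted p = 0.0246). The rest were at -0.05, with overlapping groups, and -0.07, and did not pass (limma adjusted p = 0.519 and 0.357). Other CALR probe sets were at 0.04 and -0.02, with overlapping groups. The brightest PDIA6 and CALR probe sets are of the class whose probes can match other transcripts. DNAJB9, an ER co-chaperone of BiP, stood on the higher side, with signals of 126, 141 and 146 in LV-shNC and 167, 156 and 160 in LV-shIL-1β. Its groups did not overlap, and the difference did not pass (0.23 ± 0.07, limma adjusted p = 0.0785). The other 4 were the co-chaperone DNAJC3 (-0.06 ± 0.05), SDF2L1 (-0.07 ± 0.07), the exchange factor HYOU1 (0.06 ± 0.05) and CRELD2 (0.01 ± 0.06), all with overlapping groups and limma adjusted p-values from 0.576 to 0.966.

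The 3 genes of ER-associated degradation, which returns misfolded proteins to the cytosol for destruction, had no call in limma, with 0 at an unadjusted p under 0.05. On the brightest probe sets, signals of all 3 were higher in every LV-shIL-1β array than in every control, by little. Such separation held for 15.3% of all probe sets tested. HERPUD1, a membrane component of the machinery, had means of 314 and 326 (0.06 ± 0.05), SEL1L, the adaptor of the ubiquitin ligase, of 281 and 303 (0.11 ± 0.05), and EDEM1, which selects glycoproteins, of 96.8 and 103 (0.09 ± 0.06). Their limma adjusted p-values were 0.534, 0.245 and 0.397. Other kept SEL1L probe sets were at -0.10 and 0.11 (limma adjusted p = 0.718 and 0.486), with overlapping groups. A second HERPUD1 probe set gave -0.20 (limma adjusted p = 0.22), with signals near the filter's median. It lay above that median in 3 LV-shNC arrays and in 0 LV-shIL-1β arrays. It was thus kept through the controls alone, so its sign does not decide the direction of HERPUD1.

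Set beside the promoter elements, the 9 genes with an ERSE or ERSE-II had a median log2 fold change of -0.04, 4 positive and 5 negative. In limma 1 was called lower and none higher (2 lower and 1 higher, XBP1, at an unadjusted p under 0.05). The 4 genes with a CARE were all positive with a median of 0.12 and 1 called higher (2 higher and 0 lower unadjusted). HERPUD1 holds both and is in both groups. The 21 genes with a window and neither element had a median of 0.11, with 5 called higher and 1 lower (7 and 2 unadjusted). Elements outside the windows or with other letters were not searched, so these genes may still hold one. Over all probe sets tested 3.68% were called higher and 3.37% lower, and 53.2% were positive.

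The other probe sets of these genes served as a check. There were 39 of them, of which 31, over 21 genes, passed the filter, and 25 of the 31 had the sign of the brightest one. The HERPUD1 probe set kept through the controls alone is among the 31, with the other sign. Of these 31, 4 were called, those of STC2, CTH, PSPH and PDIA6 given above. CEBPB and VLDLR have no other single-symbol probe set, and that of ASNS was below the filter. When the log2 signals of a gene's kept probe sets were averaged and 12322 genes were fitted together, 10 of the 37 were called higher and 1 lower, against 6.59% and 5.89% of all genes. The genes gained were DNAJB9 (limma adjusted p = 0.0339), PSAT1 (0.0174), PSPH (0.0372) and MTHFD2 (0.0268), and the gene lost was HSP90B1 (0.0848).

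**Figure D4:**
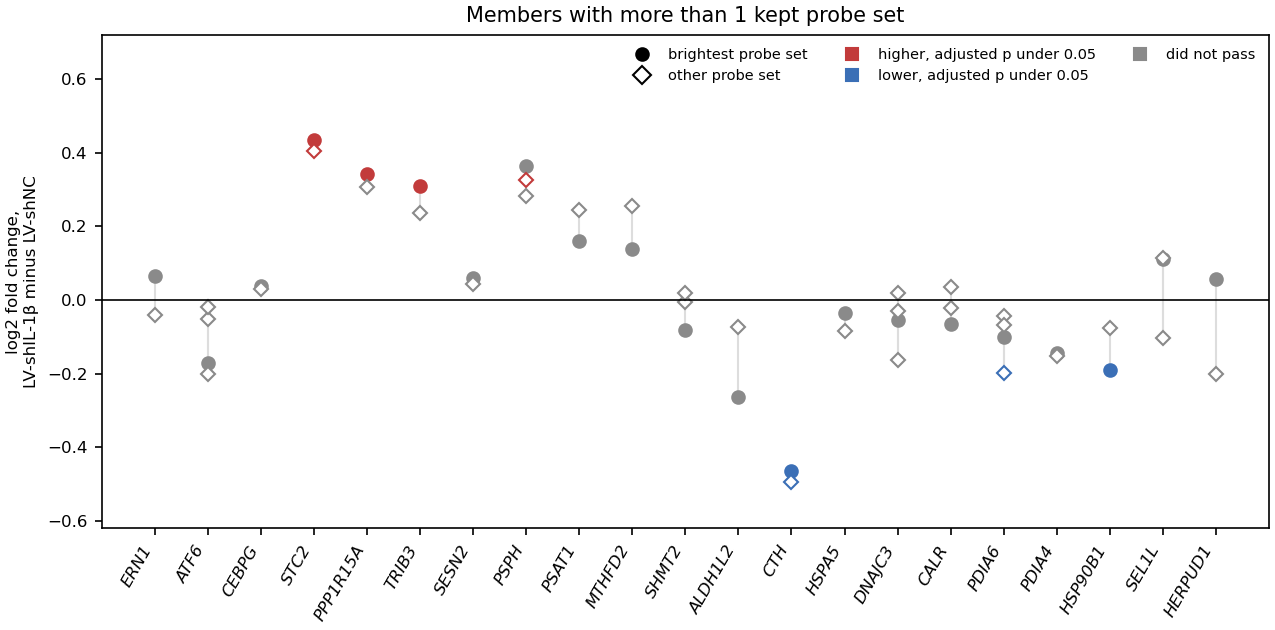
Log2 fold change of LV-shIL-1β over LV-shNC for each kept probe set of the genes that have more than 1 such probe set, the brightest one marked apart from the others. Of the 31 other probe sets 25 lie on the same side of 0 as the brightest.

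A further 70 genes of the same pathways were listed by function, of which 61 were tested. There were 3 called higher and 4 lower (median log2 fold change 0.05), beside 3.68% and 3.37% of all probe sets tested. The 15 tested targets of the ATF4 type were mixed, with 9 positive and 6 negative, and 2 called higher and 2 lower. At an unadjusted limma p under 0.05, 5 of them were higher and 3 lower. GDF15, a stress-induced cytokine, rose by 0.75 ± 0.08 (limma adjusted p = 0.000839) and SLC7A11, the cystine importer, by 0.35 ± 0.06 (limma adjusted p = 0.00923). In the same list JDP2, a bZIP repressor, was at -0.40 ± 0.06 (limma adjusted p = 0.00653) and SLC7A1, an importer of cationic amino acids, at -0.16 ± 0.03 (limma adjusted p = 0.0222), both lower. The GDF15 probe set is of the class whose probes can match other transcripts. All 11 tested aminoacyl-tRNA synthetases, which charge tRNAs with amino acids, had a positive log2 fold change, at 0.01 to 0.17 (median 0.06). Of all probe sets tested 53.2% were positive. In 2 of the 11 every LV-shIL-1β array lay above every LV-shNC array, against 15.3% of all probe sets tested. The 1 called was GARS1 for glycine (0.17 ± 0.04, limma adjusted p = 0.0222).

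Of 13 other tested genes of ER folding and secretion, 2 fell and none rose in limma (2 higher at an unadjusted p under 0.05), the disulphide isomerase PDIA3 (-0.19 ± 0.05, limma adjusted p = 0.0394) and the oxidoreductase ERO1B (-0.29 ± 0.08, limma adjusted p = 0.0491), with a median of 0.00. The 10 other tested genes of ER-associated degradation and the 12 eIF2 kinases, eIF2 subunits and exchange factor subunits held no call in limma, with medians of 0.07 and 0.02. At an unadjusted limma p under 0.05, 2 genes of the first list were higher, and 2 of the second were higher and 1 lower. Calls over all probe sets tested were 3.68% higher and 3.37% lower.

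**Figure D5:**
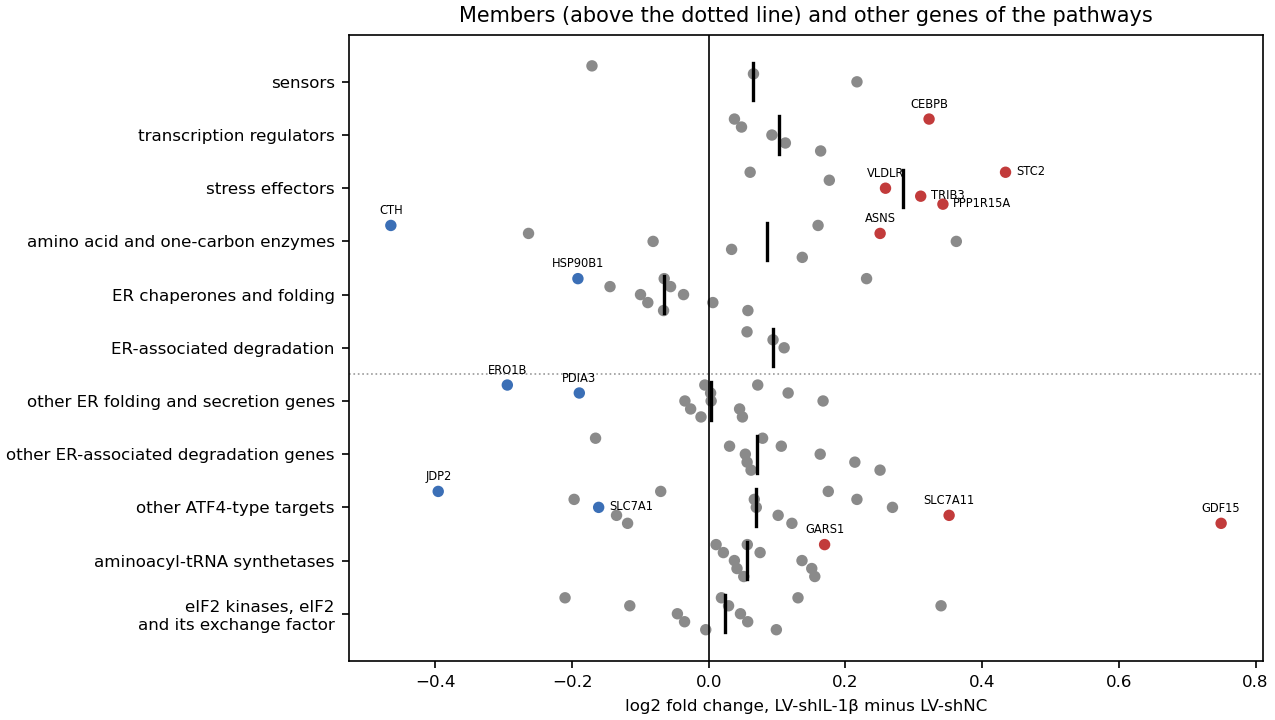
Log2 fold change of LV-shIL-1β over LV-shNC for the 37 genes by role (above the dotted line) and for 61 other tested genes of the pathways (below it), with red for higher, blue for lower, grey for genes that did not pass, and a bar at the median of each list. The stress effectors have the highest median, 0.28, and the ER chaperone and folding genes the lowest, -0.07.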

How the data were processed

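The authors deposited linear intensities, 1 for each probe set in each array, from 6 µg of total RNA labelled as biotinylated cRNA. The submitters' processing notes name MAS5, with neither version nor settings stated. Groups were taken from the labels. The number of arrays limits the precision.

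Intensities were put on the log2 scale with no further normalization, and 62 control probe sets were left out. LV-shIL-1β was compared with LV-shNC in limma 3.58.1 under R 4.3.3 (eBayes, trend on, two-sided test), Benjamini-Hochberg threshold 0.05, tested on simulated data. Every gene of the chosen list was named, with IL1B, and other pathway genes where called. Symbols came from the platform annotation, which gave 41097 probe sets a single symbol, 1801 several and 11777 none, with 41043 found in RefSeq (GRCh38.p14). The genes and lists were chosen with earlier results of these data known.

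Alternatives were quantile normalization, median centring over all or over kept probe sets (the latter chosen after seeing the data), no filter and a stricter filter. Others were a pseudocount of 16, no variance trend, Student's t-test, a replicate block, leaving out each array and averaging probe sets. The study's methods name Student's t-test for data in general and not for the arrays. Listed genes with no single-symbol probe set (among them TXNDC5, PDIA5, SYVN1, GPT2, MARS1, KRT6A, TP63 and CD68) were not analysed here.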

Additional observations from a re-analysis of the deposited data

How the results depend on the processing

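CEBPB was called higher under all 16 alternatives, TRIB3, STC2 and CTH under 15, PPP1R15A and ASNS under 10, HSP90B1 under 7 and VLDLR under 5, and none of these 8 genes changed direction. The main fit called 1943 probe sets, with 6 of the 37 genes higher and 2 lower. Student's t-test called 267 probe sets after Benjamini-Hochberg adjustment, with 2 of the genes higher (CEBPB and TRIB3) and none lower (15 and 4 before adjustment). Without the variance trend 1348 probe sets were called, with 5 genes higher and 1 lower, and ASNS and HSP90B1 lost their calls (limma adjusted p = 0.0546 and 0.108). The replicate numbers were not taken to pair the arrays, since nothing states that they do. Deviations from the group means correlated at -0.39, -0.11 and -0.21 for same-numbered arrays and at -0.11 to 0.29 for differently numbered ones. With 3 arrays a group such deviations depend on each other, so these values do not decide whether arrays are paired. With the numbers as a replicate block 568 probe sets were called, with 2 genes higher (CEBPB and STC2) and 1 lower (CTH). Leaving out 1 array left 672 to 1771 probe sets called, 3 to 5 of the genes higher and 1 to 2 lower, with the fewest probe sets called without LV-shIL-1β replicate 2. Averaging probe sets gave 10 higher and 1 lower. Differences near 0 changed sign. CRELD2 was -0.0152 after quantile normalization and -0.0177 after median centring over kept probe sets. On leaving out 1 array CRELD2 ran from -0.0305 to 0.0687, ERN1 from -0.000434 to 0.16 and SDF2L1 from -0.10 to 0.000752. HERPUD1 was -0.0722 when averaged with its dim second probe set (-0.20), which was kept through the controls alone. The cause of the other sign changes was not tested. The other scalings, filters and pseudocount lost no call except VLDLR (quantile normalization, median centring over kept probe sets and no filter).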

Other observations

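Probe sets annotated with several symbols were kept out of the comparisons. Of those that list 1 of the 37 genes, a probe set shared by MIR3652 and HSP90B1 had means of 2537 and 2194 in LV-shNC and LV-shIL-1β (-0.21 ± 0.05, limma adjusted p = 0.0284), and a second one 2496 and 2289 (-0.13 ± 0.04, limma adjusted p = 0.122). A probe set shared by MZT2A, MZT2B and PHGDH had means of 700.2 and 585 (-0.26 ± 0.06, limma adjusted p = 0.0252), while the single-symbol PHGDH probe set had 521 and 533.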
